A study of Mus musculus with 12 samples.

Results

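The genes described here are 9 that carry or oppose Notch signalling when an intestinal epithelial cell chooses its lineage. They are the receptors Notch1 and Notch2, the ligands Jag1, Dll1 and Dll4, the nuclear factor Rbpj, the Notch targets Hes1 and Nrarp, and the secretory factor Atoh1. The rule takes them by name and uses no measured value. Rows were found for 8 of the 9 among the 15855 genes of the count table, and all 8 were among the 14462 genes with enough counts to be tested. Nrarp was not analysed here. RNA was sequenced from male C57BL6/J mice aged 8 to 12 weeks, 24 h after sham surgery (7 samples) or permanent middle cerebral artery occlusion (pMCAO, 5 samples), which blocks a main artery of the brain and is not reversed. Sham-operated mice had the same procedure under ketamine and xylazine without the occlusion. Live epithelial cells were sorted from the entire small intestine by the surface protein EpCAM, so each sample mixes every epithelial lineage and every intestinal segment. Per the labels, the 12 samples are separate biological replicates.

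Notch signalling passes between touching cells. A ligand of the Delta or Jagged family on one cell binds a Notch receptor on its neighbour, the receptor is cleaved, and its intracellular part enters the nucleus, where it joins Rbpj and switches on targets such as Hes1 and Nrarp. In the intestinal crypt, Hes1 represses Atoh1 and the cell becomes absorptive. A cell that escapes the signal keeps Atoh1, which drives the goblet, Paneth and enteroendocrine lineages and the Delta ligands that secretory cells show to their neighbours.

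The total count per sample ranged from 7418730 to 31925579. The titles number the libraries, and the 4 lowest numbers, 58 to 61, held sham replicates 1 to 3 and pMCAO replicate 1. These early libraries stood apart from the later 8 on the first principal component, which held 40.5% of the variance of log2 expression. They had 13386 to 14712 genes detected against 15343 to 15766 in the later libraries. Mitochondrial ribosomal RNA took 34.8% to 54.5% of their counts against 14.6% to 35.2%. What the library numbers stand for is not given in the sources used here, so early and later name an order of numbers and not a treatment. Because 3 of the 4 early libraries were sham, the fit of surgery was made within blocks of neighbouring library numbers. The bounds of these blocks were set partly by the order of the surgeries. Epcam measured 882 to 2530 CPM in the 12 samples, where CPM is a gene's count scaled to the size of its library. The 10 immune markers summed to between 52.6 and 520 CPM in sham and between 69.6 and 351 CPM in pMCAO samples. The 3 endothelial markers measured summed to at most 11 CPM, and the 2 stromal markers to at most 13.7 CPM.

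Atoh1 and Dll4 were the pair that differed most between early and later libraries. Notch1 had the smallest limma p-value of the 8 measured genes between the surgery groups, while by edgeR and DESeq2 Hes1 had the smallest. The promoters of Atoh1, Dll4 and Notch1 are given below from RefSeq on GRCm38.p6. Each runs 5′ to 3′ on the gene's strand, from 250 bases before to 50 bases after the RefSeq start. Capitals mark the N-box CACNAG, a short sequence bound by Hes factors, on either strand. The Atoh1 promoter lies at chr6:64728875-64729174 on the plus strand, the Dll4 promoter at chr2:119325534-119325833 on the plus strand, and the Notch1 promoter at chr2:26503773-26504072 on the minus strand.
Atoh1: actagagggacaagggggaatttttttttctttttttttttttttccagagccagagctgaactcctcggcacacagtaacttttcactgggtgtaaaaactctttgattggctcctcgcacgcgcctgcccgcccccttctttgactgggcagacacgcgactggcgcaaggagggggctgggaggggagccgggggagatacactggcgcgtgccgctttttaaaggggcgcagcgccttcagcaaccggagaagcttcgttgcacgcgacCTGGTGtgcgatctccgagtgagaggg
Dll4: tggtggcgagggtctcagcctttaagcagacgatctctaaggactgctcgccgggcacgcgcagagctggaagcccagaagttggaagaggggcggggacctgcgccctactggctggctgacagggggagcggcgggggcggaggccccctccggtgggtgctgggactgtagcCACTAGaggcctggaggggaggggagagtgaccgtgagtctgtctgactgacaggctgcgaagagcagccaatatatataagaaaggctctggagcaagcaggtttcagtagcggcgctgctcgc
Notch1: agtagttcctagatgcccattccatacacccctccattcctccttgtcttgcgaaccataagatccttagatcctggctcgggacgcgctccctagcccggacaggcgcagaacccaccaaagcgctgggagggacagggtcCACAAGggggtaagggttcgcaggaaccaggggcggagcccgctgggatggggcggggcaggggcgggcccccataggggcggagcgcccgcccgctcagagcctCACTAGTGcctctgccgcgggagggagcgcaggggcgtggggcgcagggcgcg

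The Atoh1 window held 1 N-box, 23 bases after the start. The Dll4 window held 1, at 75 bases before the start. The Notch1 window held 3, of which 1 began 108 bases before the start and the other 2 overlapped across the start. An N-box is common: 42.5% of the 32851 RefSeq promoters of the same length held at least 1. The E-box CAGCTG, present in 16.3% of promoters, and the RBPJ letters TTCCCA, present in 25.6%, were searched on both strands as well, and none of these 3 windows held either. RefSeq windows were found for 8 of the 9 genes, all besides Hes1. Among the rest, the RBPJ letters were found in the windows of Rbpj itself, an E-box in those of Jag1, Dll1 and Nrarp, and an N-box in those of Notch2, Dll1 and Nrarp. A match of this kind is a description of the letters and not of a bound site.

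The 8 measured genes spanned a wide range of levels. Read as CPM per kilobase of exon, so that genes of unequal length can be compared, Atoh1 was the most abundant and the receptors were the least. The median over the 12 samples was 7.66 for Atoh1, 3.83 for Dll1, 3.08 for Hes1 and 2.72 for Dll4. It was 1.11 for Jag1, 0.699 for Rbpj, 0.234 for Notch2 and 0.0959 for Notch1. Neighbours at the top of this order were not well separated. Dll1 exceeded Hes1 in 7 of 12 samples and Hes1 exceeded Dll4 in 7 of 12, while Atoh1 exceeded Dll1 in 9 of 12. At the bottom, Rbpj exceeded Notch2 in 11 of 12 samples and Notch2 exceeded Notch1 in 10 of 12. As a ratio of highest to lowest sample, the widest range was that of Notch1, from 0.0112 to 0.271 CPM per kilobase, on raw counts of only 2 to 111 reads per sample.

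**Figure D1:**
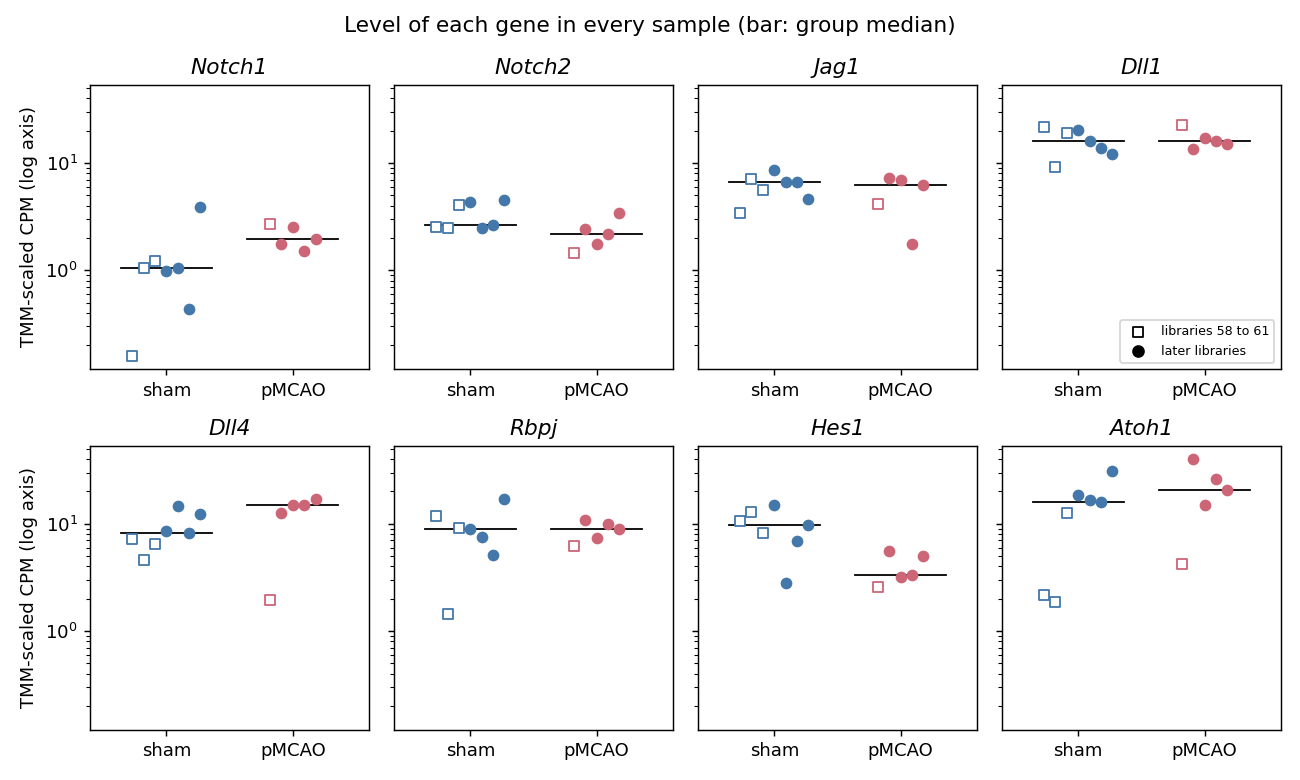
Level of each of the 8 measured genes in each of the 12 samples, as TMM-scaled CPM on a log axis, with sham and pMCAO samples side by side, early libraries (58 to 61) as open squares, later ones as dots and the group median as a bar. Hes1 lies lower in pMCAO than in 6 of the 7 sham samples, and the early libraries hold the lowest Atoh1 and Dll4 values in both groups.

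The first comparison asked whether these genes differ in the gut epithelium after stroke. With library blocks in the limma-voom fit, 47 of 14462 genes, 0.325%, were called, meaning that the adjusted p did not exceed 0.05 and the log2 difference was 1 or more in size. None of the 8 genes was called. One of them, Notch1, had an unadjusted p under 0.05 and was higher after pMCAO, against 6.58% of all genes that were higher and 6.17% that were lower at that level. With edgeR and with DESeq2 in place of limma, the count called was also 0, and 2 genes in each had an unadjusted p under 0.05. The fits compared the 11 samples of blocks that hold both surgeries, since sham replicate 7 stands alone in its block and adds nothing to the difference.

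Notch1 (ENSMUSG00000026923) encodes a receptor that crypt stem cells use to hold back secretory fate. The gene lies on chromosome 2 from 26457903 to 26516663, minus strand, on GRCm38. It measured 2.73, 1.75, 2.56, 1.52 and 1.96 CPM in pMCAO replicates 1 to 5. In sham samples the lowest value was 0.159, the median 1.04 and the highest 3.86 CPM. All 5 pMCAO samples lay above the sham median, and 6 of 7 sham samples lay below every pMCAO sample. The exception was sham replicate 7, which had the highest Notch1 of all 12 samples and has no weight in the fit with blocks. For Notch1 and the genes below, the share of all genes whose surgery groups separate as far was not counted. The log2 difference of pMCAO from sham was 1.65 (SE 0.59, 95% interval 0.40 to 2.90) by limma-voom with blocks (unadjusted p = 0.0127, adjusted p = 0.245). Blocks 1, 2 and 3 gave 1.96, 0.99 and 1.77. In block 1 the only pMCAO sample is replicate 1, and in block 3 the only sham sample is replicate 6. Without blocks, which brings sham replicate 7 back, the log2 difference was 1.39 (SE 0.56, limma unadjusted p = 0.0243) and was not called. With blocks it was 1.57 by edgeR (unadjusted p = 0.0273) and 1.58 by DESeq2 (unadjusted p = 0.00859), and neither called it. Counts were low, with 2 to 53 reads in sham and 19 to 111 in pMCAO samples. Its exons share bases with 2 genes on the opposite strand, 0610009E02Rik and Gm13568, and whether the counting used strand is not given in the sources used here, so reads from them cannot be told apart.

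Notch2 (ENSMUSG00000027878, chromosome 3, 98013527 to 98150361, plus strand), the other receptor, measured 1.45, 2.43, 1.75, 2.16 and 3.43 CPM in pMCAO replicates 1 to 5. Sham values ran from 2.49 through a median of 2.64 to 4.51 CPM. Of the 5 pMCAO samples, 4 lay below every sham sample, and pMCAO replicate 5 lay inside the sham range. The log2 difference was -0.33 (SE 0.39, interval -1.15 to 0.50, limma adjusted p = 0.776), with opposite signs within blocks: -0.98, -0.64 and 0.05 in blocks 1, 2 and 3. It was -0.58 by edgeR and -0.57 by DESeq2. Notch2 exons share bases with Gm42820, a gene on the same strand, so strand cannot tell their reads apart. Of the 2 receptors, Notch1 had a 95% interval that left 0 and Notch2 did not, and the difference between them was not tested.

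Among the ligands, Jag1 (ENSMUSG00000027276, chromosome 2, 137081456 to 137116644, minus strand) belongs to the Jagged family. It measured 4.19, 7.28, 6.89, 1.76 and 6.30 CPM in pMCAO replicates 1 to 5, and 3.42, 6.59 and 8.52 CPM at the lowest, median and highest sham sample. The groups overlapped, with pMCAO replicate 4 below all sham samples. The log2 difference was -0.25 (SE 0.33, interval -0.94 to 0.44, limma adjusted p = 0.799).

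Dll1 (ENSMUSG00000014773, chromosome 17, 15367354 to 15376872, minus strand), a Delta ligand of secretory precursors, marks cells that leave the stem cell pool. It measured 22.8, 13.6, 17.0, 16.2 and 15.2 CPM in pMCAO replicates 1 to 5, and 9.12, 16.1 and 21.7 CPM at the lowest, median and highest sham sample. The mean was 16.0 ± 4.55 CPM (SD, n = 7) for sham, while for pMCAO it was 17.0 ± 3.51 CPM (SD, n = 5). The log2 difference was 0.06 (SE 0.22), and its 95% interval, -0.40 to 0.53, is the narrowest among the 8 genes.

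Dll4 (ENSMUSG00000027314, chromosome 2, 119325784 to 119335962, plus strand) acts with Dll1 in the crypt. It measured 1.96, 12.6, 15.0, 15.0 and 17.0 CPM in pMCAO replicates 1 to 5, and 4.56, 8.29 and 14.6 CPM at the lowest, median and highest sham sample. Of the pMCAO samples, 3 lay above every sham sample and 1, the early library, lay below every one. The log2 difference was 0.35 (SE 0.29, interval -0.26 to 0.96, limma adjusted p = 0.651), and -1.56, 0.29 and 0.94 within blocks 1, 2 and 3. By edgeR and DESeq2 it was near 0, at 0.00174 and -0.00545. Exons of Dll1 and Dll4 each share bases with 1 gene on the opposite strand, A930024N18Rik and Gm14207.

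Rbpj (ENSMUSG00000039191, chromosome 5, 53466152 to 53657362, plus strand), the DNA-binding partner of cleaved Notch, measured 6.24, 10.9, 7.42, 9.91 and 8.93 CPM in pMCAO replicates 1 to 5. Sham values ran from 1.45 through a median of 8.89 to 16.9 CPM, so the sham range enclosed the pMCAO range on both sides. The means were 8.69 ± 4.89 CPM (SD, n = 7) for sham against 8.67 ± 1.86 CPM (SD, n = 5) for pMCAO samples. The log2 difference with blocks was 0.39 (SE 0.33, interval -0.32 to 1.09, limma adjusted p = 0.670), 0.23 by edgeR and 0.22 by DESeq2.

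Hes1 (ENSMUSG00000022528, chromosome 16, 30064384 to 30067796, plus strand) encodes the repressor that Notch switches on to block Atoh1. It measured 2.56, 5.60, 3.18, 3.36 and 5.01 CPM in pMCAO replicates 1 to 5. In sham samples it was 2.83 CPM at the lowest, 9.75 at the median and 15.1 at the highest. In 6 of the 7 sham samples Hes1 lay above every pMCAO sample. The exception was sham replicate 5, at 2.83 CPM. How many of all genes separate the surgery groups as far was not counted. The group means were 9.46 ± 4.00 CPM (SD, n = 7) for sham against 3.94 ± 1.30 CPM (SD, n = 5) for pMCAO samples. In bulk samples such as these, fewer cells with a transcript and less transcript per cell cannot be told apart.

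The adjusted test did not call Hes1. Its log2 difference was -0.70 (SE 0.41, interval -1.58 to 0.17) with blocks (limma unadjusted p = 0.107, adjusted p = 0.507). With the same blocks it was -1.20 by edgeR (unadjusted p = 0.0176, adjusted p = 0.402) and -1.22 by DESeq2 (unadjusted p = 0.0053, adjusted p = 0.164). It was negative within each block that holds both surgeries, at -1.98, -0.62 and -0.74 in blocks 1, 2 and 3. In block 1 the only pMCAO sample is replicate 1, and in block 3 the only sham sample is replicate 6. In block 2, sham replicate 5 (2.83 CPM) lay below pMCAO replicates 2 and 3, and sham replicate 4 (15.1 CPM) lay above them. Without blocks the log2 difference was -0.89 (SE 0.39, interval -1.71 to -0.06, limma unadjusted p = 0.0375, adjusted p = 0.571), when 4.66% of all genes were higher and 3.77% lower at an unadjusted p under 0.05. Without sham replicate 5 the value with blocks was -1.34, and without pMCAO replicate 1 it was -0.44. In the 8 later libraries alone the means were 8.64 ± 5.13 CPM (SD, n = 4) for sham against 4.29 ± 1.20 CPM (SD, n = 4) for pMCAO samples, and the log2 difference with blocks was -0.45 (limma unadjusted p = 0.357).

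Atoh1 (ENSMUSG00000073043, chromosome 6, 64729125 to 64731245, plus strand), the factor that Hes1 represses, measured 4.19, 40.5, 14.9, 26.3 and 20.6 CPM in pMCAO replicates 1 to 5. In sham samples it was 1.87 CPM at the lowest, 16.0 at the median and 31.1 at the highest. The groups overlapped over most of their range. The lowest values in each group came from early libraries. The log2 difference was 0.50 (SE 0.32, interval -0.18 to 1.17, limma adjusted p = 0.553), and 0.16, 0.48 and 0.54 within blocks 1, 2 and 3. Hes1 and Atoh1, which oppose each other in the textbook circuit, thus had differences of opposite sign within all 3 blocks, and neither passed the adjusted test. Blocks 1 and 3 each rest on a lone library of 1 surgery group, and within block 2 the groups overlapped for both genes.

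**Figure D2:**
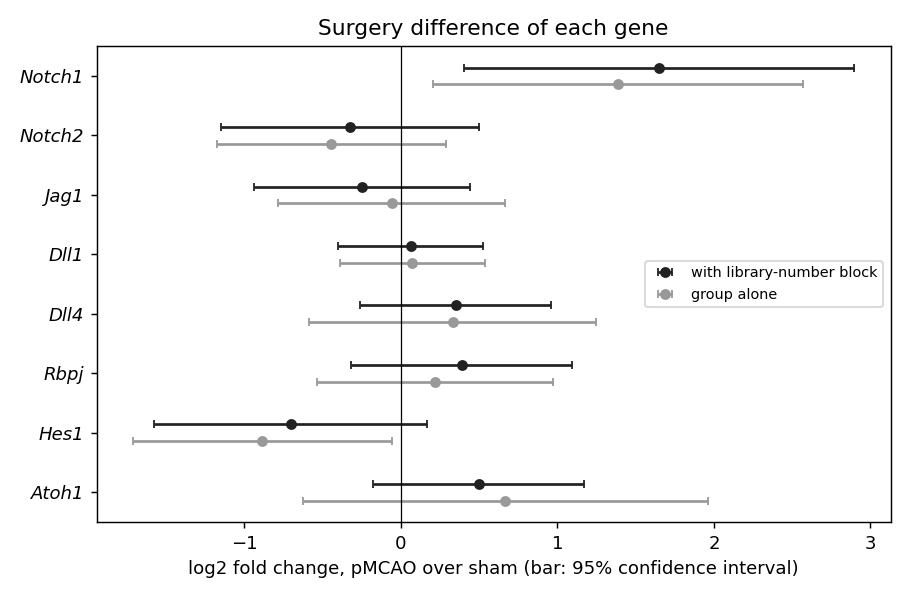
Log2 difference of pMCAO from sham for each measured gene in the fit with library blocks, in black, and in the fit on the group alone, in grey, with 95% intervals as bars. With blocks the interval of Notch1, 0.40 to 2.90, leaves 0 and those of the rest cross it, while on the group alone that of Hes1, -1.71 to -0.06, leaves it too.

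The balance of the opposing pair was read in each sample as the log2 of Hes1 minus the log2 of Atoh1, where 0 means equal CPM. It was -0.69, -2.83, -2.19, -2.93 and -2.02 in pMCAO replicates 1 to 5. In sham replicates 1 to 7 it was 2.25, 2.72, -0.61, -0.31, -2.50, -1.19 and -1.66. Atoh1 therefore exceeded Hes1 in all 5 pMCAO samples and in 5 of 7 sham samples, and the only samples with more Hes1 were sham replicates 1 and 2, both early. Their Hes1 counts were 4.93 and 6.89 times their Atoh1 counts. The mean balance was -0.19 ± 1.96 (SD, n = 7) for sham against -2.13 ± 0.90 (SD, n = 5) for pMCAO samples. In later libraries it was -1.42 ± 0.92 (SD, n = 4) and -2.49 ± 0.46 (SD, n = 4), with overlap between the groups. No p is given for this derived value. Across the 11 samples, after block means were removed, the Pearson r of Hes1 with Atoh1 was -0.16. Both genes were read from the same libraries, which differed in depth, so this value is a description.

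**Figure D3:**
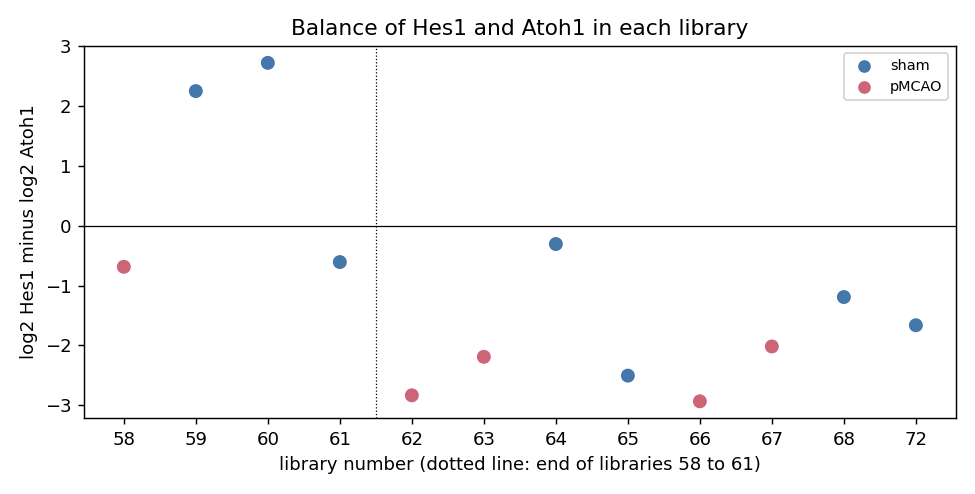
Log2 Hes1 minus log2 Atoh1 in each of the 12 samples, in order of library number, coloured by surgery, with a dotted line after library 61 and a solid line at 0, where both have the same CPM. The sham libraries 59 and 60 lie above 0, at 2.25 and 2.72, and the other 10 lie below it.

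The genes whose levels most resembled those of Hes1 and Atoh1 were listed among 8209 genes with a mean of at least 5 CPM, by Pearson r over the same 11 samples after block means were removed. For Hes1 they were Xpnpep1 (0.93), Brip1os (0.93), Art2a-ps (0.93), Dclre1c (0.91) and Nnt (0.91). For Atoh1 they were Slc12a8 (0.95), Metap2 (0.93), Hepacam2 (0.92), Gm12251 (0.90) and Lig1 (0.90). The highest of 8209 values over 11 samples are high partly because they were picked as the highest. Surgery differences were not removed, so these lists are descriptions only. Among the 8 genes themselves, the largest positive value was 0.81 between Dll1 and Rbpj, and Hes1 and Notch2 had 0.75. The value of 0.81 rests largely on sham replicate 2, an early library with the lowest level of both genes. It held 44 Dll1 and 7 Rbpj reads, or 9.12 and 1.45 CPM. Hes1 and Notch1 had -0.57.

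Other genes of the pathway and of lineage choice were read from lists drawn up by function. They held, with cell type markers, 160 genes tested. None was called between the surgery groups by limma or edgeR, and DESeq2 called 2, Gfi1 and Prdm1. An unadjusted limma p under 0.05 was found for 26 of them, 16.2%, against 12.7% of all genes, so the counts at that level given below for each list are descriptions to be read against 6.58% of all genes higher and 6.17% lower. The median log2 difference over all tested genes was 0.01.

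The list of secretory lineage factors, which act in goblet, Paneth, enteroendocrine or tuft cells and their precursors, held 22 tested genes. Its median surgery difference was 0.03, with 12 genes higher and 10 lower. At an unadjusted p under 0.05, 4 were higher and 1 was lower. Gfi1, a repressor downstream of Atoh1 that separates goblet and Paneth from enteroendocrine fate, measured 1.01 ± 1.64 CPM (SD, n = 7) for sham against 3.11 ± 1.85 CPM (SD, n = 5) for pMCAO samples. Its log2 difference was 2.22 (SE 0.63, limma adjusted p = 0.149). Gfi1 counts ran from 0 to 238. Its mean was 0.11 ± 0.21 CPM (SD, n = 4) in early and 2.77 ± 1.8 CPM (SD, n = 8) in later libraries. The 2 group means thus also hold the split between early and later libraries. Foxa3, a forkhead factor of endoderm, had a difference of 0.94 (limma adjusted p = 0.213). Pou2f3, the factor that specifies tuft cells, had -1.10 (limma adjusted p = 0.293), but 0.35 without blocks. The 8 goblet markers had a median difference of 0.55, and 5 of them were higher at an unadjusted p under 0.05. The 7 tuft markers tested had a median of -0.41, with 2 lower at that level, and the 10 enteroendocrine markers -0.15, with 1 lower. Without blocks these medians turned to 0.27 and 0.23, with none lower at that level. The goblet median was then 0.85, with 1 gene higher at that level, and that of the secretory factors 0.51.

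The list of absorptive lineage factors held 14 tested genes, 12 higher and 2 lower after pMCAO, with a median of 0.25. At an unadjusted p under 0.05, 1 was higher and 2 were lower. Prdm1, a repressor of the suckling-stage epithelium, measured 96.1 ± 50.7 CPM (SD, n = 7) for sham against 42.8 ± 35.9 CPM (SD, n = 5) for pMCAO samples. Its log2 difference was -1.03 (SE 0.24, limma adjusted p = 0.0751). Maf had a difference of 0.54 and Elf3 of -0.31, with limma adjusted p = 0.290 and adjusted p = 0.358. The 10 enterocyte markers were all higher, with a median of 0.32 and 4 at an unadjusted p under 0.05. Among them Sis, picked here after its value was seen, had 0.74 (limma adjusted p = 0.0337), which stayed under the fold threshold. Without blocks Sis had 1.14 (limma adjusted p = 0.322).

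The machinery around the receptor was read in the same way. The 9 tested genes of receptor cleavage, the sheddases and the gamma-secretase subunits, had a median of -0.03, and none had an unadjusted limma p under 0.05. Ncstn, the most abundant of them per length, measured 56.1 ± 11.6 CPM (SD, n = 7) for sham against 49.9 ± 2.64 CPM (SD, n = 5) for pMCAO samples. The 5 glycosylation genes and the 12 genes of ligand and receptor turnover also had none under 0.05, with medians of 0.35 and 0.12. Among 17 coactivators and corepressors of Rbpj, with a median of -0.04, the corepressor Ctbp1 had the smallest p, with a difference of 0.51 (SE 0.19, limma adjusted p = 0.270). The other receptors and ligands tested, Notch3 and Jag2, had -0.43 and 0.16, and -0.02 and 0.24 without blocks. The other Hes factors tested, Hes2 and Hes6, had -0.48 and 0.34, and neither had an unadjusted limma p under 0.05. Of the remaining markers, 2 of 11 proliferation and 3 of 10 immune markers were higher at an unadjusted p under 0.05, while none of 10 stem cell, 6 Paneth, 3 endothelial and 2 stromal markers passed that level. Without blocks none of the immune markers did.

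**Figure D4:**
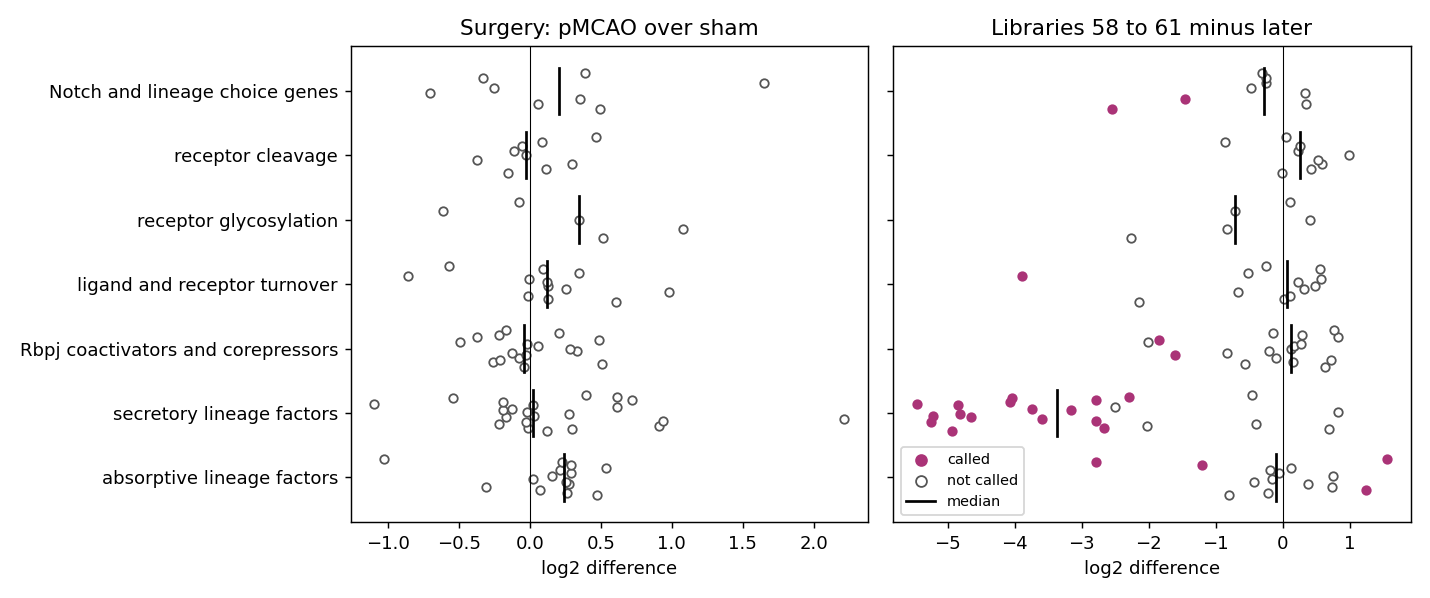
Log2 differences of the tested genes of 7 lists, the Notch and lineage choice genes and the pathway and lineage lists with at least 5 tested genes, for pMCAO minus sham and for early minus later libraries, with 1 point per gene, filled where called, and the list median as a bar. The surgery medians of these 7 lie between -0.04 and 0.35, while the secretory factors have a median of -3.38 between early and later libraries.

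The second comparison set the 4 early libraries against the 8 later ones, with surgery in the fit. These libraries were singled out because they stood apart over all genes, so the p-values below describe the 8 genes across a split already known to be large and are no independent evidence for it. By limma-voom, 8.39% of all genes were called lower in early libraries and 3.28% higher. Of the 8 genes, 2 were called lower, Atoh1 and Dll4, and none higher. They were also the 2 genes with every early library below every later one, which held for 9.39% of all genes.

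Atoh1 measured 2.15, 1.87 and 12.5 CPM in sham replicates 1 to 3 and 4.19 CPM in pMCAO replicate 1, the 4 early libraries. In the later 8 it ranged from 14.9 to 40.5 CPM. The log2 difference of early from later was -2.56 (SE 0.61, 95% interval -3.84 to -1.27, limma adjusted p = 0.00811). Raw counts were 9 to 52 in early and 151 to 1736 in later libraries. In sham samples alone it was -2.57 (limma adjusted p = 0.0120). Without pMCAO replicate 1 it was -2.61, with an adjusted p of 0.0584 that no longer passed.

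Dll4 measured 7.16, 4.56 and 6.51 CPM in sham replicates 1 to 3 and 1.96 CPM in pMCAO replicate 1, against 8.29 to 17.0 CPM in later libraries. Its log2 difference was -1.45 (SE 0.45, interval -2.41 to -0.50, limma adjusted p = 0.0326). That call rested on single libraries. It was -0.73 without pMCAO replicate 1 (limma adjusted p = 0.332), the adjusted p was 0.0579 without sham replicate 2, and in sham samples alone the difference was -0.89 (adjusted p = 0.165).

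The other 6 genes were not called. Dll1, the other Delta ligand, had 0.35 (SE 0.25, interval -0.18 to 0.88), and Hes1 had 0.33 (SE 0.47, limma adjusted p = 0.648). Scaling to total counts instead of TMM factors turned both signs, to -0.48 and -0.48, while shifting the median of all genes from -0.15 to -0.95. Relative to that median they were 0.50 and 0.49 with TMM factors and 0.47 and 0.47 with total counts. On the same relative scale Atoh1 was -2.40 and -2.33, and Dll4 was -1.30 and -1.34. The share of calls that were lower was 71.9% with TMM factors and 99.3% with total counts. Jag1, Rbpj, Notch2 and Notch1 had differences of -0.47, -0.31, -0.25 and -0.24 with TMM factors. The Delta ligands thus had values of opposite sign with TMM factors, and the difference between them was not tested.

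**Figure D5:**
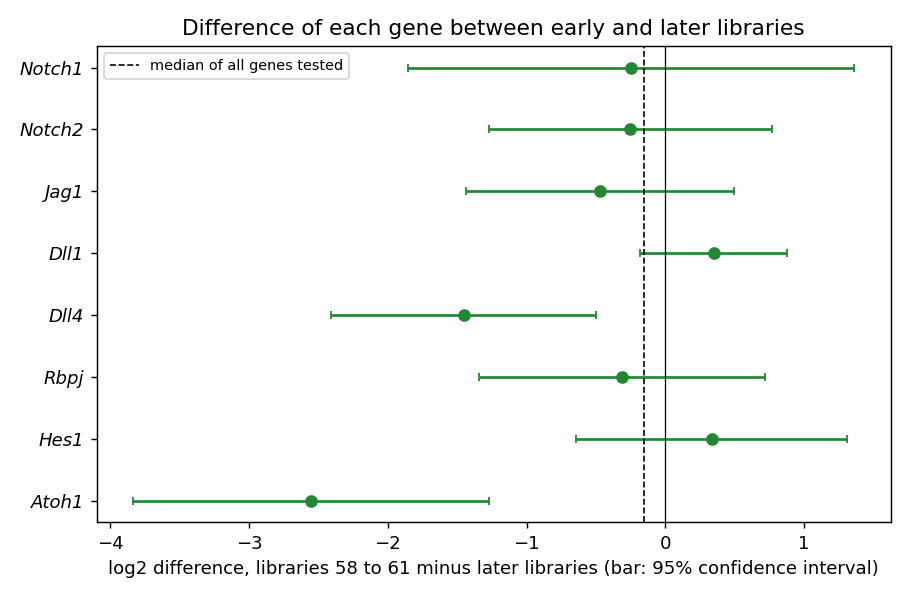
Log2 difference of early from later libraries for each measured gene, with 95% intervals as bars, in the fit with surgery, and the median of all genes as a dashed line. The intervals of Atoh1, -3.84 to -1.27, and Dll4, -2.41 to -0.50, lie below 0.

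Secretory factors as a list were low in the early libraries with Atoh1. Of 22 tested, 16 were called lower and none higher, against 8.39% and 3.28% of all genes, and their median difference was -3.38, against -0.15 for all genes. The median was the same when genes at 0 in all early libraries were set at their bound, a floor of 3 counts over the group. In sham samples alone 2 were called lower, and 7 without pMCAO replicate 1. The count filter was applied anew in both fits, so fewer than 22 may have been tested. Neurod1, a factor of enteroendocrine differentiation, measured 6.63 ± 1.95 CPM (SD, n = 4) in early and 53.7 ± 10.7 CPM (SD, n = 8) in later libraries (log2 difference -3.16, SE 0.38, limma adjusted p = 7.8e-05). Klf4, a factor of goblet and differentiated cells and the most abundant of the list per length, went the other way, at 714 ± 68.3 CPM (SD, n = 4) in early against 410 ± 88.0 CPM (SD, n = 8) in later libraries, a difference of 0.82 (limma adjusted p = 0.00284) that stayed under the fold threshold.

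Absorptive factors were split, with 2 of 14 called higher and 2 called lower and a median of -0.11. Creb3l3, a lipid metabolism factor of enterocytes and the most abundant of the list per length, was called higher, with 895 ± 126 CPM (SD, n = 4) in early and 396 ± 126 CPM (SD, n = 8) in later libraries (log2 difference 1.25, SE 0.20, limma adjusted p = 0.000704). Prdm1 was the other called higher, with 1.56 (limma adjusted p = 0.00248). Nr5a2 and Nr1h4, nuclear receptors of lipid and bile acid control that were picked here after their values were seen, were called lower, with -2.79 and -1.20.

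In the pathway lists the share of genes called lower was near the 8.39% of all genes or rested on few genes. Of 12 turnover genes 1 was called lower, the ubiquitin ligase gene Neurl1a, at 0.253 ± 0.325 CPM (SD, n = 4) in early and 2.77 ± 1.48 CPM (SD, n = 8) in later libraries. Of 17 Rbpj cofactors, 2 were called lower. They were the coactivator Maml3, with -1.84 (SE 0.44, limma adjusted p = 0.00794), and the deacetylase Hdac2, with -1.61 (SE 0.54, limma adjusted p = 0.0458), the latter picked after its value was seen. Large coregulators had values above 0 but under the fold threshold: Ep300 had 0.72, Spen 0.76, Crebbp 0.63 and Ncor1 0.83. No gene of receptor cleavage, glycosylation, the other receptors and ligands or the other Hes factors was called by limma. One cleavage gene, the receptor-processing protease gene Furin, had an unadjusted limma p under 0.05, with a difference of 0.98 (adjusted p = 0.00853), and no gene of the other lists did. edgeR called none in these 4 lists, and DESeq2 called 1 glycosylation gene lower.

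Markers of mature cell types moved with this difference. Summed goblet markers ranged from 4180 to 8150 CPM in early and from 20600 to 55200 CPM in later libraries, with 7 of 8 genes called lower. Enteroendocrine markers ranged from 161 to 323 and from 1600 to 3080 CPM, with 10 of 10 called lower. Tuft markers ranged from 22 to 47.8 and from 216 to 1020 CPM, with 6 of 7 called lower. Stem cell markers ranged from 61.4 to 84.1 and from 95.9 to 171 CPM, with 4 of 10 called lower. Enterocyte markers ranged from 39000 to 81900 and from 21300 to 42600 CPM, with 4 of 10 called higher and 1 lower. One of 6 Paneth and 1 of 10 immune markers were called lower, and none of 11 proliferation, 3 endothelial and 2 stromal markers was called. The part of these cell types, of depth and of the mitochondrial ribosomal share in the Atoh1 and Dll4 values was not tested.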

How the data were processed

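The count columns deposited by the authors hold whole-number counts per gene, made with STAR and featureCounts on GRCm38 (mm10), as the submitters' processing notes name them. The deposited CPM columns are those counts scaled to the library total and were not used. The authors' own comparison columns, which hold log2 fold changes, average log2 expression, p-values and false discovery rates, were not used, and the CPM and log2 values printed here were computed from the deposited counts. Genes were kept by filterByExpr at its defaults (minimum count 10), scaled by TMM factors and tested with limma-voom (R 4.3.3, limma 3.58.1, edgeR 4.0.16), with Benjamini-Hochberg adjustment over 14462 genes. DESeq2 1.42.0 and edgeR's quasi-likelihood test were alternatives.

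The study's fit corrected for collection day, which the labels do not give. Blocks of neighbouring library numbers from the titles stood in for it: 58 to 61, 62 to 65, 66 to 68, and 72 alone. In order of number, a new block began where the surgery turned from sham back to pMCAO or where a number was skipped. The block bounds thus came partly from the surgery labels, and whether they match collection days is not known. Log2 CPM of single samples used a prior count of 2. A floor of 3 counts was 0.0691 to 0.724 CPM, and counts set the precision by counting error only. Same-numbered sham and pMCAO replicates had residual correlations from -0.239 to 0.398. These correlations also carry the early and later split, so they cannot decide whether the replicate numbers pair samples. The main fit used no such pairing. The genes, the lists and the block rule were chosen with earlier results of these data known. From each list the text names up to 3 genes with the smallest p in each of the surgery and library fits, for use with either, and the most abundant per length. Values of 1 gene that this rule names are not reported here. Gene positions are from GENCODE M21, and promoters from RefSeq.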

Additional observations from a re-analysis of the deposited data

Results flagged for a closer look

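One value stood apart from its group. In pMCAO replicate 1, an early library, Dll4 was 1.05 on the log2 CPM scale, while pMCAO replicates 2 to 5 had 3.90 ± 0.18 (SD, n = 4), and the gap to the nearest of them took 0.857 of the whole range of the group. In all, 18 sets of values were examined in this way, of which 0.9 would stand apart by chance.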

How the results depend on the processing

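With library blocks 47 genes were called between the surgery groups. The count was 0 without blocks (1219 at an unadjusted limma p under 0.05), 16 with early and later libraries as the only blocks, 21 by edgeR, 114 by DESeq2 and 0 without libraries 58 to 61 (1421 at an unadjusted limma p under 0.05). Leaving out 1 sample gave 4 (without sham replicate 6) to 86 (without pMCAO replicate 3), and 0 of the 8 genes called each time. With the replicate number as a block 243 genes and 0 of the 8 were called, and 1 of sham replicates 1 to 5, replicate 1, was most alike to the pMCAO sample of its own number. Dll1 turned to -0.0253 with the replicate block and -0.0275 without libraries 58 to 61, and Dll4 to -0.00545 with DESeq2. Leaving out 1 sample, Dll1 ran from -0.0381 to 0.139 and Dll4 from -0.0684 to 0.562. Early against later libraries gave 1687 genes called, 2928 by DESeq2, 4113 with total counts and 716 in sham samples alone. In sham samples alone the count filter was applied anew and Notch1 was not tested. Of the other genes 1 was called there, Atoh1, along with 2 secretory factors. Leaving out 1 sample gave 703 (without pMCAO replicate 1) to 2205 (without sham replicate 5) genes, 0 to 2 of the 8 genes and 7 to 17 secretory factors. Dll1 and Hes1 turned to -0.48 and -0.48 with total counts. Leaving out 1 sample, Notch1 ran from -0.92 to 0.41 and Rbpj from -0.81 to 0.0586. The causes were not tested. Depth limits Notch1 most, at 2 to 111 counts.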
